A study of Mus musculus with 29 samples.

Results

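The hearts of 12-month-old (Middle Age, MA) female mice without RAGE, the receptor for advanced glycation end products, were set against those of WT mice of the same age. The comparison held 8 of the 29 mice of the series, 4 MA Rage-/- and 4 MA WT, taken by their labelled age and genotype. All 8 are labelled C57BL/6N, were fed normal chow and were perfused with phosphate-buffered saline before the heart was frozen. Total RNA of the left ventricle (LV) of each mouse was hybridised to 1 Illumina bead array. The WT mice came from a commercial breeder, and the sources used here do not say that the Rage-/- mice were their littermates, so genotype and colony cannot be told apart. The labels name no promoter or Cre driver, so the loss is not tied to a cell type or to adult life.

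RAGE, encoded by *Ager*, is a pattern recognition receptor of the immunoglobulin superfamily. It binds glycated proteins, S100 proteins and HMGB1, and its cytoplasmic tail binds the formin DIAPH1. Its signalling reaches NF-kappaB and inflammatory genes, and in the heart it is known from endothelial cells, fibroblasts, cardiomyocytes and infiltrating leukocytes. *Ager* had no tested probe and could not be read directly. An unnamed probe was inferred, by its mean in the study's table, to be the one for EGFP (enhanced green fluorescent protein). It was singled out after its values were seen. Its log2 intensities were 5.46, 4.76, 5.20 and 5.29 in MA WT mice 1 to 4, below detection in each, and 8.91, 8.51, 8.67 and 8.82 in MA Rage-/- mice 1 to 4. The genotypes were separate on this probe. Since the probe was chosen with its values known, this is a description and no check of the labels. Its difference of 3.53 (SE 0.21, limma adjusted p = 1.74e-10, at least 7.06-fold) did not pass once BeadChip was added as a fixed block (2.27, limma adjusted p = 0.232). In what follows the values of single mice are always in this order, 1 to 4.

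The 2 groups were not on the same glass. The 4 MA WT arrays lay on a BeadChip with 2 Young Rage-/- arrays, and the 4 MA Rage-/- arrays lay on another with 1 Old WT array. No BeadChip held both MA genotypes, so no value within a BeadChip can be given, and BeadChip and genotype cannot be told apart in MA from the 8 arrays alone. Of the first surrogate variable, a pattern of unwanted variation estimated from the arrays themselves, BeadChip accounted for 72.6% and group for 47.2% of the variance. Detected probes numbered 9629 to 11589 in MA WT and 9384 to 10553 in MA Rage-/-, and these ranges overlapped. The number of arrays, 4 in each group, sets the precision. The median SE of a difference was 0.19 log2 units.

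By limma, which fits a linear model to every probe and steadies each variance with those of the others, 252 of 13277 probes had a p under 0.05 after Benjamini-Hochberg adjustment over all probes and are named called here (1.9%). Of these, 139 were higher in MA Rage-/- (1.05% of all probes) and 113 lower (0.851%), and 2383 probes had an unadjusted p under 0.05. The direction split moved with the scaling. It was 55.2% higher here, 37.5% higher of 325 calls on the authors' normalized values and 42.7% higher of 323 calls on log2 and quantile-normalized intensities, although all 252 differences kept their sign in both. Of the 56 named calls, those of *Trim30a*, *Itgav*, *Ffar3*, *Npr1*, *Gcnt1*, *Slc6a17*, *Psmd7*, *Snrk*, *Wdr5*, *Prrt1*, *Cdsn*, *Ddr1* and *Gm8909* were not made on the authors' values (adjusted p 0.0546 to 0.187). The called differences had a median size of 0.87 log2 units, and 77 of them were 1 or more. In 750 probes (5.65%) the single mice of the groups did not overlap, and 135 of these were among the 252 calls. Called probes were dim, with a median level of 6.53 beside 7.12 over all probes. Beads outshone the negative controls in all 8 mice for 104 of the 252, in no WT mouse for 31 and in no Rage-/- mouse for 36.

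The count rested on the adjustment for unwanted variation and on single mice. Without surrogate variables 8 probes were called, and with the 8 MA arrays alone 2. With BeadChip as a fixed block, which estimates the BeadChip shift from the arrays of the other groups, 7 were called, of which *Adgrf5* was the 1 shared with the 252, and 209 of the 252 kept their sign. Among named genes whose sign turned with this block, SEs ran from 0.33 to 2.08. The median SE over all probes was 0.19 in the reported fit. Leaving out MA Rage-/- mouse 3 gave 99 calls, mouse 2 gave 144, and leaving out MA WT mouse 3 gave 156. The arrays of other groups on the same 2 BeadChips were described, with no test. The Old WT array on the Rage-/- BeadChip was set against the other Old WT arrays, and from this was taken the like value of the 2 Young Rage-/- arrays on the WT BeadChip. Those other Old WT arrays lay on BeadChips with no Young Rage-/- array and had 14208 to 15087 detected probes. The other Young Rage-/- arrays had 10827 to 12220. The result also holds the shift between those BeadChips, so it does not measure the MA BeadChip shift alone. The resulting difference had the sign of the MA difference in 136 of the 252 called probes (54.0%) and in 51.2% of all probes. It had that sign and a size of 0.5 times the MA difference or more in 32.9% of the called and 44.9% of all probes. Called probes were selected for large MA differences, which raises this bar, so the lower share among them has no meaning of its own. Across probes it correlated at 0.20 with the unadjusted MA difference and at 0.03 with the fitted one, where each side shares its arrays over all probes. The fit and its surrogate variables also used the arrays of other groups, so the lower value does not measure what BeadChip shift remains.

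**Figure D1:**
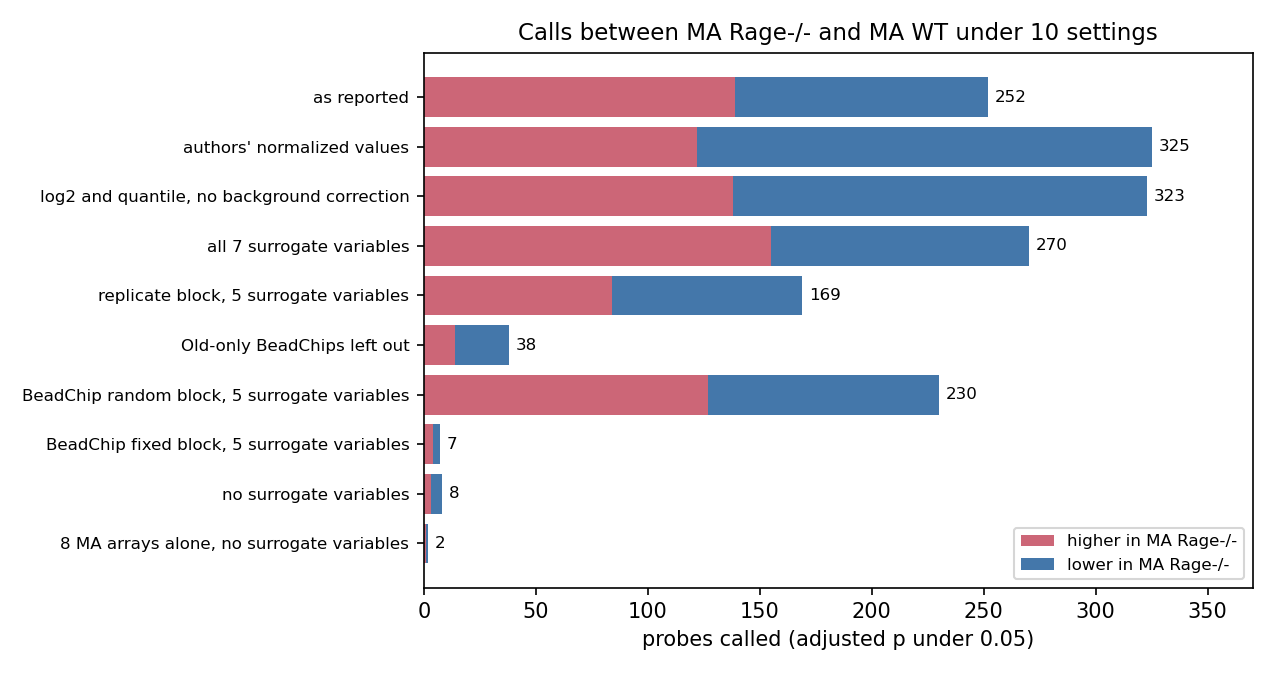
Number of probes called between MA Rage-/- and MA WT (x axis, adjusted p under 0.05) under 10 settings (y axis), divided into probes higher (red) and lower (blue) in MA Rage-/-. The reported fit gave 252 calls and the authors' normalized values 325, while the fits without surrogate variables gave 8 (all 29 arrays) and 2 (8 MA arrays), and a fixed BeadChip block gave 7.

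*Adgrf5*, an adhesion G protein-coupled receptor of endothelium and of lung and kidney epithelium, had the largest difference of any named gene. Its log2 intensities were 8.04, 8.04, 8.70 and 8.52 in MA WT and 4.92, 4.66, 4.88 and 4.95 in MA Rage-/-. It was detected in all WT mice and in no Rage-/- mouse, and the groups lay far apart. The difference was −3.48 (SE 0.18, limma adjusted p = 2.75e-11), a decrease of at least 5.02-fold with the dim group held at the lowest detectable signal of its arrays. It was called in all 8 fits that left out 1 mouse and with either BeadChip block. In whole tissue, fewer cells of a type and less RNA per cell cannot be told apart. Of the 5 endothelial markers 4 were measured. *Pecam1*, *Cdh5* and *Emcn* were detected in all 8 mice and *Tie1* in no WT and 3 Rage-/- mice. Their mean deviation from the 29-mouse mean was −0.64 to −0.35 in MA WT and −0.09 to 0.07 in MA Rage-/-. Of the 4, *Tie1* was called, and *Pecam1*, *Cdh5* and *Emcn* each overlapped between the groups and did not pass.

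Of 24 measured hypertrophy and wall stress genes 1 was called higher and 1 lower, and the list's median difference was 0.14 beside 0.0052 over all genes, of which 143 of 8189 were called by their brightest probe (1.75%). The 1.75% is the share to set beside each count of called list members below. *Ankrd1*, the cardiac ankyrin repeat protein that sits at the titin spring of the sarcomere and is induced by stretch, was the member called higher. Its log2 intensities were 13.06, 12.66, 12.67 and 12.79 in MA WT and 13.68, 13.48, 13.45 and 13.80 in MA Rage-/-. All 4 Rage-/- mice were above every WT mouse, and this is one of the brightest probes of the array. It rose by 0.82 (SE 0.17, adjusted p = 0.018), and its second, dimmer probe rose by 0.75 (adjusted p = 0.0302). Without MA Rage-/- mouse 4 the first was 0.69 (adjusted p = 0.0549). *Ep300*, a histone acetyltransferase and coactivator of cardiac growth genes, was the member called lower. It read 7.58, 8.26, 8.03 and 7.84 in MA WT and 6.42, 7.23, 7.42 and 7.25 in MA Rage-/-, with no overlap, and fell by 0.96 (SE 0.19, adjusted p = 0.0129, called without any 1 mouse).

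A few more genes of stretched or loaded muscle were singled out after their values were seen. *Ankrd23*, a paralogue of *Ankrd1* in the same titin-bound family, read 9.45, 9.63, 8.96 and 8.82 in MA WT and 10.51, 9.67, 9.93 and 10.27 in MA Rage-/-. The groups were separate by a small margin, since Rage-/- mouse 2 lay just over WT mouse 2. It rose by 0.90 (SE 0.19, adjusted p = 0.0175), and was not called without MA WT mouse 3 or 4 or Rage-/- mouse 1 (0.77 to 0.83, adjusted p 0.0503 to 0.0599). *Trim54*, a muscle RING finger protein of the sarcomere and microtubules, read 11.23, 11.01, 11.33 and 11.35 in MA WT and 11.77, 12.02, 12.03 and 11.78 in MA Rage-/-. It rose by 0.64 (SE 0.13, adjusted p = 0.0163) without overlap and stayed called without any 1 mouse. *Nppb*, which encodes the natriuretic peptide BNP released by strained ventricle, read 12.30, 12.73, 11.76 and 10.64 in MA WT and 12.84, 12.92, 13.09 and 13.15 in MA Rage-/-. All Rage-/- mice were above all WT mice, but the WT mice spread over 2 log2 units, and the difference of 1.20 (SE 0.32) did not pass (adjusted p = 0.0544). *Npr1*, the receptor for this peptide and for ANP, was below detection in all WT mice (4.76 to 5.28) and detected in 3 Rage-/- mice (5.91 to 6.29). It rose by at least 1.13-fold (fitted difference 0.80, SE 0.18, adjusted p = 0.0291), and was not called without MA WT mouse 2 or Rage-/- mouse 2 or 3 (0.75 to 0.77, adjusted p 0.062 to 0.0777). *Nppa*, the ANP gene, had means of 13.12 and 13.04 (difference 0.09, adjusted p = 0.941), and *Acta1*, the skeletal actin re-expressed in hypertrophy, had 12.21 and 12.67 (difference 0.52, adjusted p = 0.219). *Ankrd1*, *Ankrd23* and *Trim54* are genes of skeletal muscle too. Of its 4 markers *Acta1* and *Ckm* were measured, with mean scores of −0.10 to 0.01 in MA WT and 0.15 to 0.41 in MA Rage-/-, without overlap, while *Tnnt3* and *Myh4* had no tested probe. Their part in these calls was not tested.

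The promoters of 4 of these genes are shown, *Ankrd1*, *Ankrd23*, *Trim54* and *Nppb*. Their mice did not overlap between groups, with Rage-/- higher in each. All 4 hold the M-CAT core, the element through which TEAD factors act in muscle promoters. *Npr1* also had no overlap and was called, but its promoter is not shown. Both the genes and the motif were chosen with these results known, so a core in all 4 is no result. The difference of *Nppb* did not pass. Each line runs from 250 bases before to 50 bases after a RefSeq start of GRCm38.p6, 5′ to 3′ on the gene's strand, with CATTCC or, for a core on the opposite strand, GGAATG in capitals.
Ankrd1, chr19:36119795-36120094, minus strand: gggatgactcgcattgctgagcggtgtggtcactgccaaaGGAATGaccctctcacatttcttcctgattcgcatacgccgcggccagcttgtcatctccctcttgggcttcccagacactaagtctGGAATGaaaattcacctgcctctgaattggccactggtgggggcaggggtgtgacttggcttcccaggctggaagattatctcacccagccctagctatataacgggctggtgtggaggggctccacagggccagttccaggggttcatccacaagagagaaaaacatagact
Ankrd23, first start, chr1:36536507-36536806, minus strand: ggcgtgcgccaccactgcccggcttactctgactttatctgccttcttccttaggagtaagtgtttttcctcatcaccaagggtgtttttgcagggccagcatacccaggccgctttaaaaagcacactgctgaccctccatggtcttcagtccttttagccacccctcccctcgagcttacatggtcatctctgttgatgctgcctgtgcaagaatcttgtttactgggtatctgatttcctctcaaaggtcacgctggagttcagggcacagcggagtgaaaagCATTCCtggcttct
Ankrd23, second start, chr1:36535690-36535989, minus strand: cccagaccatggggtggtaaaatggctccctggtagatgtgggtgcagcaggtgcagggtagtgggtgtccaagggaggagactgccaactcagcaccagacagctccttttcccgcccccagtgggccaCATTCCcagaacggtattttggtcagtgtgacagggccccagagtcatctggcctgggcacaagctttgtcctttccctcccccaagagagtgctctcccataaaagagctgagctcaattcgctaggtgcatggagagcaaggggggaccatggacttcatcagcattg
Trim54, chr5:31116362-31116661, plus strand: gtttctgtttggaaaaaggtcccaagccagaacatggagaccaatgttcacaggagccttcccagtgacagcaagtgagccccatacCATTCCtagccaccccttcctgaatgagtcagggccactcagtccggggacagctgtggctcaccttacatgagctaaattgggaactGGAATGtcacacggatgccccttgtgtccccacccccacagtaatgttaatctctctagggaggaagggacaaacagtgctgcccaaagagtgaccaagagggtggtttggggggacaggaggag
Nppb, chr4:147985650-147985949, plus strand: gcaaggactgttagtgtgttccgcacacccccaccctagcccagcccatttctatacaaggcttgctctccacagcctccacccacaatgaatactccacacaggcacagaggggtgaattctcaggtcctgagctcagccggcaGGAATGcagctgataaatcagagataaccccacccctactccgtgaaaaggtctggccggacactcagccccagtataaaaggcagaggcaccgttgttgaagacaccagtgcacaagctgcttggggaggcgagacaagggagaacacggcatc
*Ankrd1* held 2 cores, both on the opposite strand, *Trim54* held 1 on each strand, and each window of *Ankrd23* and that of *Nppb* held 1. The 6 letters are common. They occurred on either strand in 4817 of 32851 promoter windows of this length (14.7%). Of the tested genes with a window, 14.8% had a match, beside 16 of 85 genes called higher (18.8%) and 16 of 86 called lower (18.6%). A match is a description of the letters and does not say that a factor binds there.

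**Figure D2:**
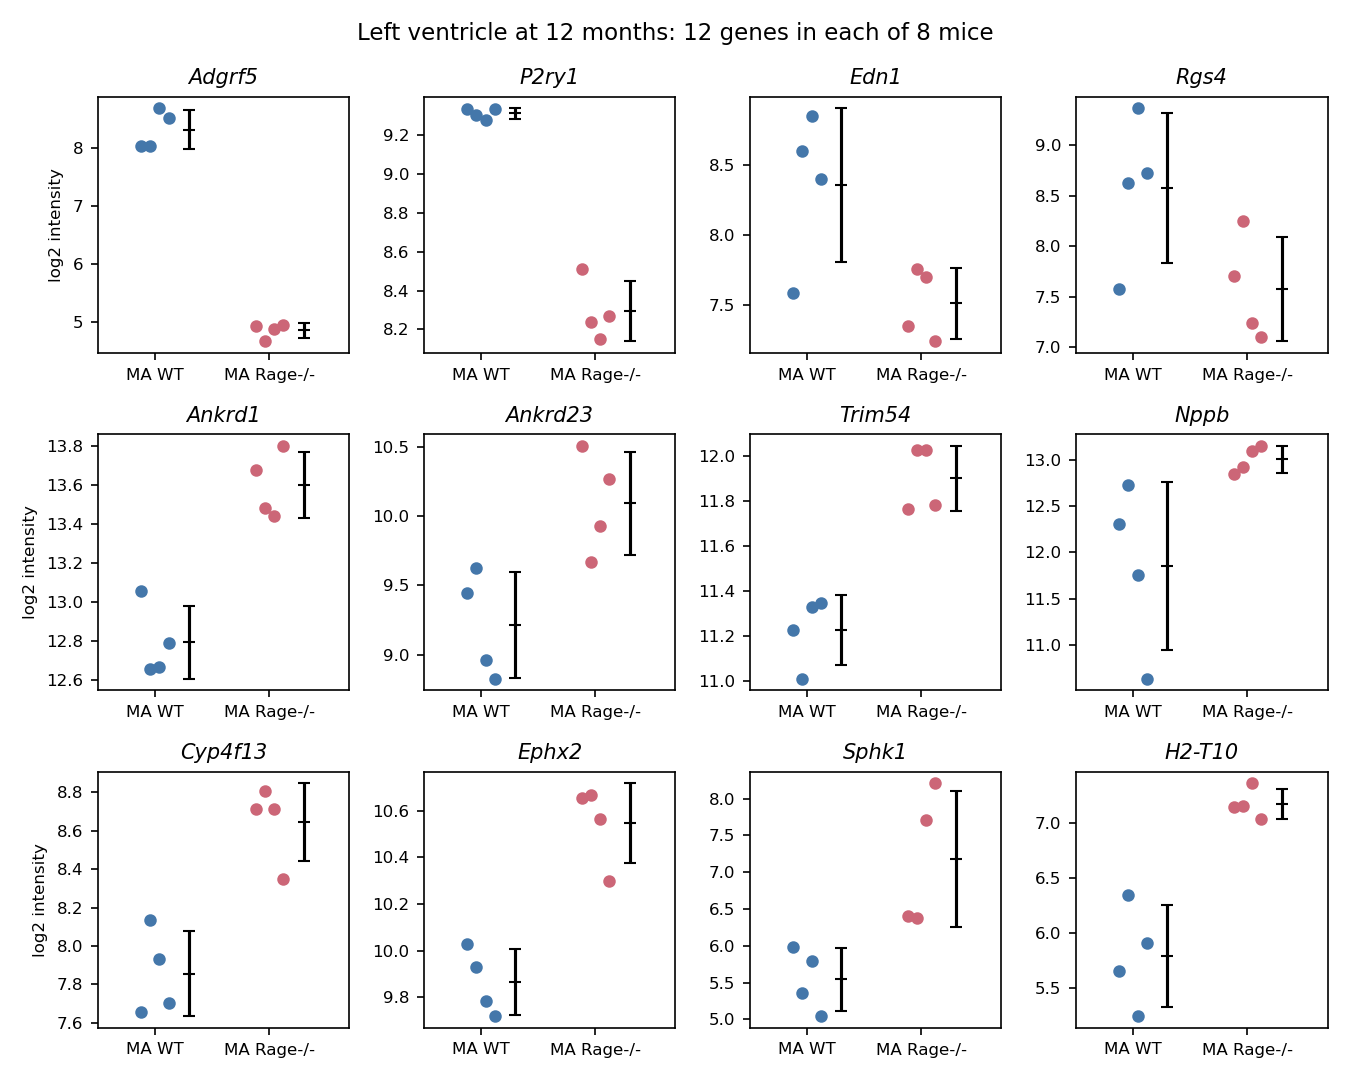
Log2 intensity (y axes, each with its own range) of 12 genes in the 4 MA WT (blue) and 4 MA Rage-/- mice (red), with mean and SD in black. *Adgrf5*, *P2ry1*, *Ankrd1*, *Trim54*, *Cyp4f13*, *Ephx2*, *Sphk1*, *H2-T10*, *Ankrd23* and *Nppb* had no overlap, while in *Edn1* and *Rgs4* MA WT mouse 1 lay among the Rage-/- mice.

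A list of heart G protein-coupled receptors and regulators of G protein signalling (RGS proteins), with some ligands, had 22 measured genes and a median of 0.125. *Adgrf5* is not in this list. In it *P2ry1*, *Rgs4* and the ligand *Edn1* were called lower and 1 gene higher (18.2%, beside 1.75% of all genes). *P2ry1*, a receptor for ADP that couples to Gq, was the tightest of them. It read 9.33, 9.31, 9.28 and 9.33 in MA WT and 8.51, 8.24, 8.15 and 8.27 in MA Rage-/-. The WT mice differed by under 0.1 and every Rage-/- mouse was below them. It fell by 1.05 (SE 0.18, adjusted p = 0.00455), and the call held without any 1 mouse but not with the fixed BeadChip block (−1.95, adjusted p = 0.232). *Rgs4*, which shortens Gq and Gi signals in cardiomyocytes, read 7.57, 8.62, 9.37 and 8.73 in MA WT and 7.71, 8.25, 7.24 and 7.11 in MA Rage-/-. *Edn1*, the endothelial peptide endothelin-1 that constricts vessels through Gq-coupled receptors, read 7.58, 8.60, 8.84 and 8.40 against 7.35, 7.76, 7.70 and 7.24. In both genes MA WT mouse 1 stood below the other WT mice and within the Rage-/- range. *Rgs4* fell by 1.06 (SE 0.27, adjusted p = 0.0401) and *Edn1* by 0.94 (SE 0.22, adjusted p = 0.0285). Both calls were lost without MA WT mouse 2, 3 or 4 or Rage-/- mouse 3 or 4. These fits gave −1.07 to −0.81 for *Rgs4* (adjusted p 0.0561 to 0.139) and −0.92 to −0.80 for *Edn1* (adjusted p 0.0572 to 0.0685). With the fixed block both signs turned at wide SEs (0.65, SE 0.82, and 0.57, SE 0.62), and neither was called.

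*Ffar3*, a Gi-coupled receptor for short-chain fatty acids, was the member called higher. It read 7.28, 6.38, 5.68 and 6.62 in MA WT and 8.24, 6.47, 7.06 and 7.52 in MA Rage-/-. The groups overlapped, with mouse 1 highest in each. It rose by 0.93 (SE 0.20, adjusted p = 0.022), and was not called without MA WT mouse 2 or 3 or Rage-/- mouse 1, 3 or 4 (0.68 to 0.90, adjusted p 0.0589 to 0.0829). *Aqp4*, a water channel and the 1 called gene of 25 measured for calcium handling and ion channels, read 5.12, 6.69, 6.30 and 6.31 in MA WT and 4.49, 4.72, 4.75 and 5.0 in MA Rage-/-. It was detected in 3 WT mice and in no Rage-/- mouse. The difference was −1.33 (SE 0.20, adjusted p = 0.00198), at least 1.08-fold lower, and stayed called without any 1 mouse. *Lypd2*, a lipid-anchored surface protein of the LY6 family, read 6.17, 6.97, 6.60 and 7.06 against 4.80, 5.64, 5.33 and 5.0, with no Rage-/- mouse above background. The other 6 measured members of its family were not called.

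The lists of lipid mediators and of sphingolipids had 2 calls each, all higher (11.8% and 10%, beside 1.75% of all genes). *Cyp4f13*, a cytochrome P450 of the family that omega-hydroxylates leukotrienes and fatty acids, read 7.66, 8.13, 7.93 and 7.70 in MA WT and 8.72, 8.81, 8.71 and 8.35 in MA Rage-/-. *Ephx2*, the soluble epoxide hydrolase that turns epoxyeicosatrienoic acids into diols, read 10.03, 9.93, 9.79 and 9.72 against 10.66, 10.67, 10.57 and 10.30. Neither gene overlapped between groups. *Cyp4f13* rose by 0.80 (SE 0.14, adjusted p = 0.00576) and was called without any 1 mouse. *Ephx2* rose by 0.55 (SE 0.13, adjusted p = 0.0362), and was called in 2 of the 8 fits that left out 1 mouse, those without MA WT mouse 1 and Rage-/- mouse 4 (otherwise 0.50 to 0.57, adjusted p 0.0544 to 0.0841). They were 2 of 17 measured genes of eicosanoid and epoxide metabolism, a list whose median was −0.11. *Cyp4f13* lies 1.65 Mb from *Ager*, and the calls near *Ager* are given below.

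In ceramide and sphingolipid metabolism 2 of 20 measured genes were called. *Cers2*, the synthase of very-long-chain ceramides, read 10.10, 10.23, 10.11 and 9.98 in MA WT and 10.65, 10.66, 10.58 and 10.56 in MA Rage-/-. Within each group the mice were close together, and the groups were apart. It rose by 0.52 (SE 0.13, adjusted p = 0.0388), but was called in 1 of the 8 fits that left out 1 mouse, that without Rage-/- mouse 4 (otherwise 0.49 to 0.54, adjusted p 0.0538 to 0.0886). *Sphk1*, which makes sphingosine 1-phosphate, read 5.98, 5.36, 5.80 and 5.04 in MA WT, detected in 1 mouse, and 6.41, 6.38, 7.71 and 8.21 in MA Rage-/-, detected in all 4. Rage-/- mice 3 and 4 stood over mice 1 and 2. It rose by 1.61 (SE 0.40, adjusted p = 0.0388), and was not called without MA WT mouse 2 or 4 or Rage-/- mouse 3 or 4 (1.17 to 1.57, adjusted p 0.0631 to 0.0943). The list's median was 0.009.

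Of 15 measured targets of PPAR-alpha, the receptor that drives fatty acid oxidation genes in heart, *Ephx2* was the 1 call, also counted above. The median difference of the list was 0.34, beside 0.0052 over all genes. Of the 15, 12 lay above 0, beside 4167 of all 8189 tested genes. *Cpt1b*, the muscle carnitine palmitoyltransferase of the mitochondrial gate, read 12.04, 11.82, 12.08 and 11.53 in MA WT and 12.25, 12.26, 12.14 and 12.21 in MA Rage-/-, without overlap (0.41, adjusted p = 0.0958). The median of 23 genes of fatty acid uptake and beta-oxidation was 0.00048 and none was called by its brightest probe. *Slc25a20* and *Acsl5*, which handle fatty acids, were called higher on a dimmer probe (0.86 and 0.68, adjusted p 0.0337 and 0.0384). That of *Slc25a20* was detected in 1 WT and 1 Rage-/- mouse. Their brightest probes had 0.10 and 0.03 (adjusted p 0.750 and 0.933). Of the 23, 4 had an unadjusted p under 0.05, beside 1461 of all 8189 tested genes. *Acaa2* (0.42, adjusted p = 0.105) had all Rage-/- mice above, and *Eci2* (−0.32, adjusted p = 0.176) had all below. *Ldhd*, the mitochondrial D-lactate dehydrogenase, was the 1 call of 23 genes of the tricarboxylic acid cycle and dehydrogenases. It read 7.76, 7.97, 8.39 and 8.28 in MA WT and 7.66, 7.45, 7.26 and 7.25 in MA Rage-/-, with WT mouse 1 close to Rage-/- mouse 1. It fell by 0.64 (SE 0.16, adjusted p = 0.0388), and was not called without MA WT mouse 3 or 4 or Rage-/- mouse 2, 3 or 4 (−0.63 to −0.54, adjusted p 0.0544 to 0.127).

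None of 48 measured subunits of the respiratory chain and ATP synthase was called, and the median was −0.08. Of the 48, 5 had an unadjusted p under 0.05, beside 1461 of all 8189 tested genes. On the authors' normalized values 3 were called lower. *Cox7b*, a subunit of cytochrome c oxidase, read 8.40, 8.95, 8.89 and 9.52 in MA WT and 8.11, 7.89, 8.24 and 8.29 in MA Rage-/-, without overlap (−0.88, adjusted p = 0.106). *Ndufs4*, *Ndufs8* and *Ndufa10* of complex I had differences of −0.33, −0.28 and −0.23 (adjusted p 0.171 to 0.212). Cardiomyocyte markers were bright and close in both groups, as in *Myh6* with means of 14.51 and 14.50, and 4 of the 5 listed were measured.

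**Figure D3:**
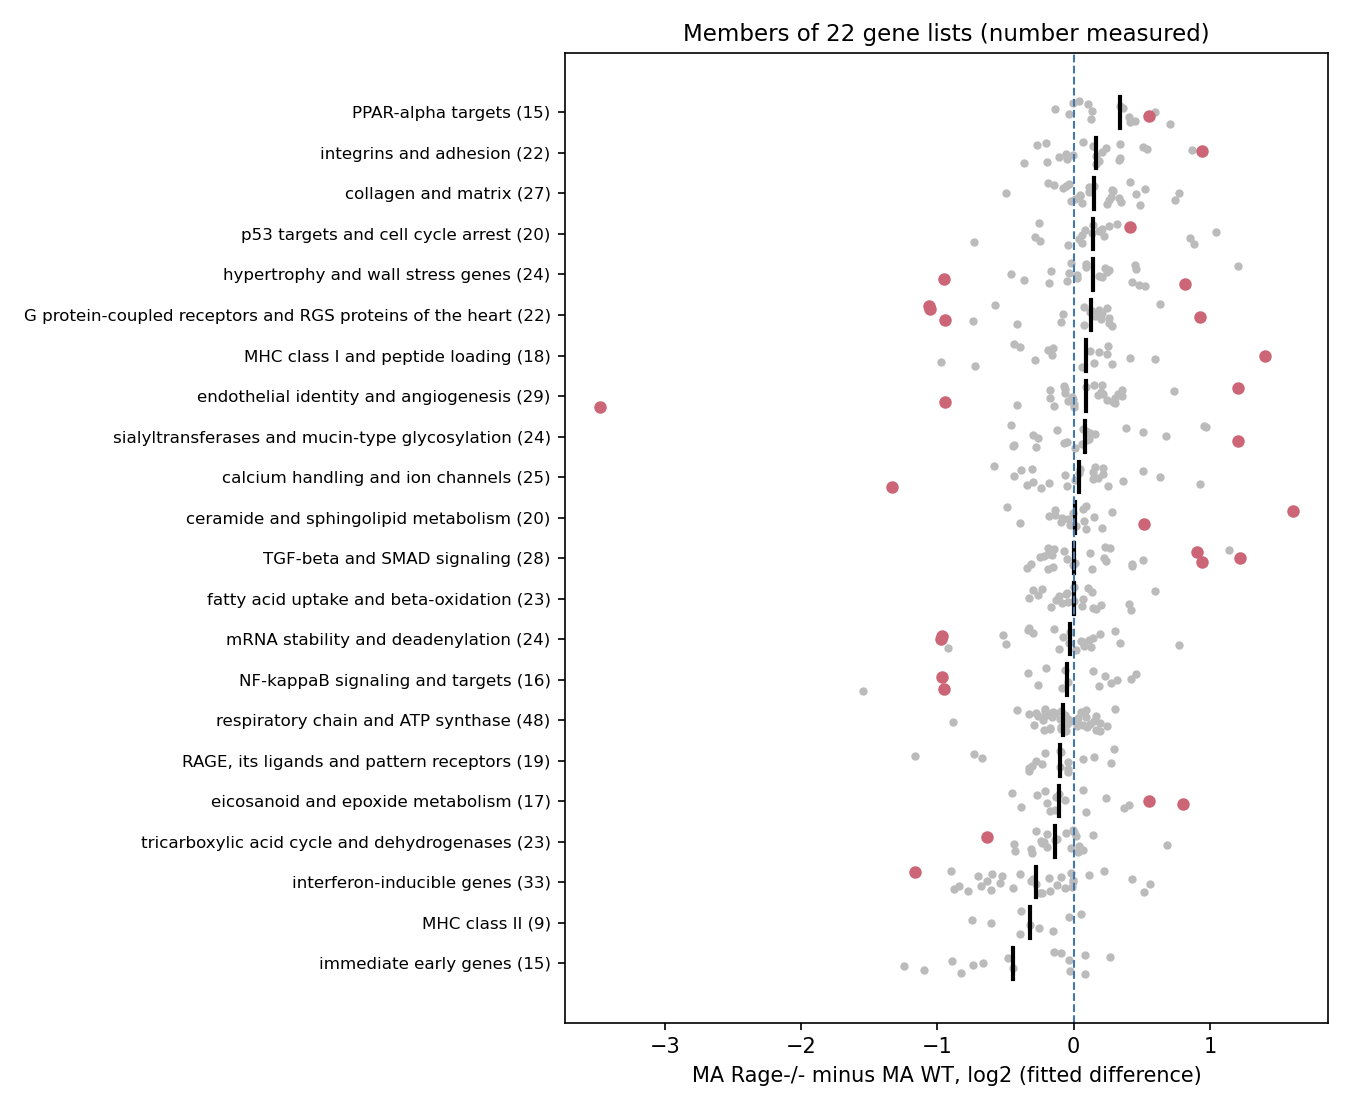
Fitted difference, MA Rage-/- minus MA WT in log2 units (x axis), of each measured gene (points, red where called) in 22 gene lists (y axis, number measured in brackets), with the list median as a black bar and the median of all genes as a dashed line. The medians ran from −0.44 in immediate early genes to 0.34 in PPAR-alpha targets, and *Adgrf5* in the endothelial list stood farthest from 0.

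The endothelial and angiogenesis list had 29 measured genes, of which 2 were called lower, *Adgrf5* and *Edn1*, and 1 higher (10.3%, beside 1.75% of all genes). *Tie1*, a receptor tyrosine kinase that modulates angiopoietin signalling, read 5.37, 5.14, 4.66 and 5.46 in MA WT, below detection in each, and 6.41, 6.46, 6.60 and 5.50 in MA Rage-/-. Rage-/- mouse 4 lay just above the WT mice and apart from the other Rage-/- mice. It rose by at least 1.26-fold (fitted difference 1.20, SE 0.21, adjusted p = 0.00576), and was called without any 1 mouse. *Pecam1*, *Tek* and *Cdh5* had differences of 0.33, 0.35 and 0.30 (adjusted p 0.198 to 0.284).

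In TGF-beta and SMAD signalling, which drives fibroblasts toward matrix production, 3 of 28 measured genes were called, all higher (10.7%, beside 1.75% of all genes). The list median was 0.002. *Itgav*, the integrin alpha V chain that releases latent TGF-beta, read 6.05, 6.07, 5.57 and 5.27 in MA WT, detected in 2 mice, and 6.87, 6.41, 6.63 and 6.50 in MA Rage-/-, detected in all 4. It rose by 0.95 (SE 0.16, adjusted p = 0.00576) without overlap, and was called without any 1 mouse, but not on the authors' values (adjusted p = 0.0608). *Scx*, the transcription factor scleraxis of tendon and of matrix-producing fibroblasts, read 6.04, 5.39, 4.72 and 5.77 against 7.13, 6.11, 7.01 and 6.55. The groups were apart, by a small margin between WT mouse 1 and Rage-/- mouse 2. *Scx* rose by 1.22 (SE 0.30, adjusted p = 0.0372), and was not called without MA WT mouse 2 or 3 or Rage-/- mouse 1, 3 or 4 (0.97 to 1.23, adjusted p 0.0545 to 0.111). *Smad6*, an inhibitory SMAD, was called higher (0.90, adjusted p = 0.0252) but was not well above background in any of the 8 mice, and was not called without Rage-/- mouse 3 or 4 (0.85 and 0.82, adjusted p 0.0739 and 0.0538).

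None of 27 measured collagen and matrix genes was called, and the median was 0.15. Of the 27, 5 had an unadjusted p under 0.05, beside 1461 of all 8189 tested genes. Above 0 lay 20 of the 27, beside 4167 of the 8189. *Bgn*, the proteoglycan biglycan, read 11.41, 11.57, 11.63 and 11.20 in MA WT and 12.01, 12.10, 12.06 and 11.66 in MA Rage-/-, without overlap (0.49, adjusted p = 0.132). *Dcn*, the related proteoglycan decorin and a fibroblast marker, read 12.71 to 13.14 against 12.39 to 12.74 (−0.50, adjusted p = 0.0944). Its sign turned with the fixed BeadChip block (1.05, SE 0.37, limma adjusted p = 0.364). *Eln* (0.78, adjusted p = 0.114) and *Col8a1* (0.46, adjusted p = 0.216) did not pass either. The 5 fibroblast markers had mean scores of −0.34 to 0.07 in MA WT and −0.30 to −0.01 in MA Rage-/-, and these overlapped.

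Among 33 measured interferon-inducible genes 1 was called, lower. The median of the list was −0.27, 28 of the 33 lay below 0 and 14 had an unadjusted p under 0.05. Over all 8189 tested genes, 4167 lay above 0 and 1461 had an unadjusted p under 0.05. *Trim30a*, an interferon-induced ubiquitin ligase that restrains Toll-like receptor signalling in mice, read 5.88, 5.73, 5.83 and 6.94 in MA WT and 5.45, 5.22, 5.04 and 4.95 in MA Rage-/-. WT mouse 4 stood far above the rest, and no Rage-/- mouse was detected. The difference was −1.17 (SE 0.20, adjusted p = 0.00562), at least 1.07-fold lower, and was called without any 1 mouse, but not on the authors' values (adjusted p = 0.0629). *Igtp*, an interferon-induced GTPase, read 8.08, 9.12, 7.80 and 8.91 against 7.76, 7.60, 7.75 and 7.53, without overlap (−0.84, adjusted p = 0.177). Its relatives *Irgm2* (−0.64, adjusted p = 0.228) and *Ifit3* (−0.68, adjusted p = 0.281) overlapped. In these 3 genes MA WT mice 2 and 4 were the highest, and the list scores overlapped, at −0.49 to 0.37 in MA WT and −0.79 to −0.17 in MA Rage-/-.

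The 9 measured genes of MHC class II, which present antigen on macrophages, dendritic cells and B cells, had a median of −0.32 and none called. Of the 9, 3 had an unadjusted p under 0.05, beside 1461 of all 8189 tested genes. *H2-Ab1* read 9.16, 9.60, 8.66 and 9.34 in MA WT and 8.62, 8.33, 8.46 and 8.55 in MA Rage-/-, without overlap (−0.61, adjusted p = 0.116). The probe of *H2-DMa* was above background in 1 WT mouse and in no Rage-/- mouse (fitted difference −0.75, adjusted p = 0.0838). Of the 5 macrophage markers 4 were measured, with mean scores of −0.50 to −0.12 in MA WT and −0.47 to −0.08 in MA Rage-/-, which overlapped. The listed T cell and B cell markers had no tested probe. In MHC class I and peptide loading *H2-T10*, a nonclassical class I gene, was the 1 call of 18. It read 5.66, 6.35, 5.24 and 5.90 in MA WT and 7.14, 7.16, 7.36 and 7.04 in MA Rage-/-. The groups were well apart, and it rose by 1.40 (SE 0.23, adjusted p = 0.00367), also without any 1 mouse. Class I genes are near copies of each other and a probe may read more than 1 of them, so its identity is uncertain.

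None of the 19 measured genes for RAGE ligands, DIAPH1 and other pattern receptors was called by its brightest probe. Of the 19, 1 had an unadjusted p under 0.05, beside 1461 of all 8189 tested genes. This was *S100a4* (−0.67, adjusted p = 0.266). *Myd88* of this list had 0.27 on its brightest probe (adjusted p = 0.353). Its dimmer probe, detected in 1 WT and 4 Rage-/- mice, was called higher (0.86, adjusted p = 0.0458). *S100a8*, a RAGE ligand of neutrophils, read 8.01, 5.26, 5.16 and 7.93 in MA WT and 5.82, 6.48, 4.71 and 4.67 in MA Rage-/- (−1.17, adjusted p = 0.338). WT mice 1 and 4 were the highest, and the probe was detected in these and in 1 Rage-/- mouse. *Diaph1* was detected in 1 WT mouse and in no Rage-/- mouse (−0.33, adjusted p = 0.324). The same 2 WT mice were high in immediate early genes, which are induced within minutes by growth factors and stress. *Egr1* read 12.37, 10.70, 9.84 and 12.63 in MA WT and 10.16, 10.50, 10.34 and 10.22 in MA Rage-/- (−1.10, adjusted p = 0.176). *Ccn1* read 8.20, 6.05, 5.27 and 8.09 against 5.12, 6.05, 6.72 and 6.51 (−0.83, adjusted p = 0.334), and *Fosb* was detected in the same 2 WT mice alone (−0.66, adjusted p = 0.27). None of 15 immediate early genes was called, and their median was −0.44. Of the 15, 3 had an unadjusted p under 0.05, beside 1461 of all 8189 tested genes. In the NF-kappaB list 2 of 16 genes were called (12.5%, beside 1.75% of all genes). They were *Ep300* and *Rc3h2*, both lower and both also members of other lists.

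In mRNA stability and deadenylation 2 of 24 measured genes were called, both lower (8.33%, beside 1.75% of all genes). The list median was −0.03. *Papola*, the canonical poly(A) polymerase, read 6.90, 7.86, 8.10 and 7.37 in MA WT and 6.27, 6.56, 6.51 and 6.55 in MA Rage-/-, without overlap. It fell by 0.98 (SE 0.22, adjusted p = 0.0233), and was not called without MA WT mouse 2 or Rage-/- mouse 3 (−0.93 and −0.94, adjusted p 0.0542 and 0.0566). *Rc3h2*, or Roquin-2, which marks immune mRNAs for decay, read 6.32, 8.17, 8.35 and 7.76 against 6.09, 7.04, 7.86 and 6.44. The groups overlapped, and the fall of 0.96 (SE 0.25, adjusted p = 0.042) was called in 1 of 8 fits that left out 1 mouse, that without Rage-/- mouse 3 (otherwise −1.11 to −0.64, adjusted p 0.0507 to 0.145). *Chd1*, a chromatin remodeller, read 7.01, 8.41, 8.85 and 8.43 in MA WT and 6.53, 7.36, 7.24 and 6.59 in MA Rage-/-, with mouse 1 lowest in each group as in *Rc3h2*. It fell by 1.37 (SE 0.27, adjusted p = 0.0129), and by 1.11 without Rage-/- mouse 4 (adjusted p = 0.0504). With the fixed BeadChip block the signs of *Rc3h2* and *Chd1* turned (0.91, SE 0.56, and 0.14, SE 0.45, neither called). In *Chd1*, *Rc3h2*, *Rgs4*, *Edn1* and *Zfp871* alike MA WT mouse 1 was the lowest WT mouse, and its array had the most detected probes of the 8.

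*Pcbp4*, an RNA-binding target of p53, rose by 0.42 (SE 0.11, adjusted p = 0.0439) with all Rage-/- mice (11.04 to 11.26) above all WT mice (10.57 to 10.92), and was called in 1 of the 8 fits that left out 1 mouse, that without Rage-/- mouse 4 (otherwise 0.37 to 0.45, adjusted p 0.0555 to 0.157). *Gcnt1*, which branches mucin-type glycans, read 6.02, 4.93, 4.73 and 6.06 in MA WT and 6.57, 6.71, 6.42 and 6.68 in MA Rage-/-. It rose by 1.21 (SE 0.30, adjusted p = 0.0391), and was not called without MA WT mouse 2 or 3 or Rage-/- mouse 2, 3 or 4 (0.96 to 1.30, adjusted p 0.0555 to 0.103). Its sign turned with the fixed BeadChip block (−0.41, SE 0.96). *Armcx2*, a mitochondrial armadillo-repeat gene of the X chromosome, was higher in each Rage-/- mouse (7.84 to 8.18 against 7.19 to 7.42), while none of the other 7 measured genes of its family was called.

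Among the remaining genes with the lowest p and no overlap, *Zc3h13*, part of the mRNA methylation complex, read 5.80, 6.47, 7.11 and 6.65 in MA WT and 5.15, 5.18, 4.93 and 4.91 in MA Rage-/-, where no mouse was above background. Its difference was −1.46 (SE 0.25, adjusted p = 0.00562), at least 1.43-fold lower. *Ctdsp2*, a small phosphatase of RNA polymerase II, read 9.26, 9.21, 9.23 and 8.99 against 9.51, 9.91, 9.93 and 9.48. All Rage-/- mice were above the WT mice, and it rose by 0.59 (SE 0.12, adjusted p = 0.0131). *Mdn1*, an AAA ATPase of ribosome assembly, and *Ascc2*, a subunit of a DNA alkylation repair complex, rose by 0.99 and 0.74 (adjusted p 0.00534 and 0.0131). *Tcaf2* (0.92, adjusted p = 0.00909) and *Slc6a17* (1.14, adjusted p = 0.00911, at least 1.11-fold) were above background in 1 and 2 Rage-/- mice and in no WT mouse. These 6 calls held without any 1 mouse. So did that of *Pisd-ps3*, a pseudogene whose probe may also read its parent gene, which was lower without overlap (6.95 to 7.72 against 8.07 to 9.39, −1.27, adjusted p = 0.0062).

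Among the largest differences, *Lyar*, a nucleolar zinc finger protein, read 6.71, 6.63, 7.46 and 6.98 in MA WT and 6.55, 6.15, 4.82 and 5.71 in MA Rage-/-, where mouse 3 stood lowest. It fell by 1.44 (SE 0.28, adjusted p = 0.0129), and was not called without that mouse (−1.09, adjusted p = 0.0519). *Wdr5*, a core subunit of histone H3 lysine methyltransferase complexes, read 6.38, 6.29, 5.26 and 5.45, detected in 2 WT mice, against 7.11, 7.23, 6.87 and 6.96, detected in all. It rose by 1.27 (SE 0.28, adjusted p = 0.0233), and was not called without MA WT mouse 3 or 4 or Rage-/- mouse 2 (1.03 to 1.19, adjusted p 0.0579 to 0.0735).

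Some calls with low p came from a dimmer probe of a gene whose brightest probe did not differ. Of 213 genes among the called probes 95 had several probes. In 25 of these the brightest was called, in 32 another probe had the opposite sign, and in 3 (*Ankrd1*, *Chd1* and *St7l*) every probe was called. *Zfp292*, a zinc finger gene, read 7.08, 8.55, 8.24 and 7.60 in MA WT and 5.89, 6.54, 6.77 and 5.93 in MA Rage-/- on its called probe (−1.59, SE 0.24, adjusted p = 0.0019), but its brightest probe had a difference of 0.24 (adjusted p = 0.234). *Psmd7*, a proteasome lid subunit, was 1.11 higher on a probe detected in 1 WT and 4 Rage-/- mice (adjusted p = 0.00791), while 2 brighter probes had differences of −0.08 and −0.29 (adjusted p 0.785 and 0.516). *Prkg1*, the cGMP-dependent protein kinase, had a difference of −1.01 on its dimmer probe (adjusted p = 0.00911), and the brighter one had a difference of 0.04 (adjusted p = 0.944). *Trafd1*, *Ppm1k* and *Snrk* had the same kind of split. *Zfp281*, a zinc finger transcription factor, had −1.26 on its dimmer probe (adjusted p = 0.00208) and −0.70 on the brighter one (adjusted p = 0.0605). *Ccl21c*, which encodes a copy of the lymphoid chemokine CCL21, had 1.08 and 0.66 (adjusted p 0.0085 and 0.0713), and near-identical copies of this gene may share its probes. In *Cdkn1a*, the cell cycle inhibitor p21, 3 probes had differences of 0.85, 0.72 and 1.60, and the dimmest was the 1 called (adjusted p = 0.0422), though not without MA WT mouse 3 or 4 or Rage-/- mouse 3 or 4 (1.28 to 1.48, adjusted p 0.0775 to 0.163). Which transcript forms these probes read was not examined here, and 36 further called probes have no gene name.

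*Ager* lies at chr17:34597460-34600937 of GRCm38.p6, within the class III region of the mouse major histocompatibility complex. The calls near the targeted gene are given apart. Within 20 Mb of *Ager* 12 of 277 tested genes were called (4.33%, 6 higher and 6 lower), beside 1.75% of all genes. Within 2 Mb, a window chosen after the values were seen, the share was 8 of 88 (9.09%). *Prrt1*, 0.028 Mb away, was below detection in all WT mice (4.73 to 5.62) and read 5.81 to 6.65 in MA Rage-/-, detected in 3. It was called at 0.89 (adjusted p = 0.0379), at least 1.18-fold, but not without MA WT mouse 2 or 3 or Rage-/- mouse 2, 3 or 4 (0.70 to 0.92, adjusted p 0.0835 to 0.116). *Cyp4f13* (1.65 Mb) and *H2-T10* (1.51 Mb), described above, lie in the same window, as do *Cdsn* (0.94, adjusted p = 0.0279), *Gm8909* (0.66, adjusted p = 0.0388), *Ddr1* (−1.01, adjusted p = 0.028), *Zfp871* (−0.63, adjusted p = 0.0175) and *Rpp21* (−0.50, adjusted p = 0.0405). *Cdsn* was lost without MA WT mouse 3 or Rage-/- mouse 3 or 4, and *Zfp871* without MA WT mouse 2, 3 or 4 or Rage-/- mouse 1. The sign of *Cdsn* turned with the fixed BeadChip block (−0.047, SE 0.74). Of the fits without 1 mouse, *Ddr1* kept its call only in those without MA WT mouse 1 and Rage-/- mouse 3, *Gm8909* in those without MA WT mouse 2 and Rage-/- mouse 4, and *Rpp21* in that without MA WT mouse 1 (adjusted p of the rest 0.0511 to 0.164). *Ddr1*, a collagen-binding receptor kinase, read 6.78, 7.09, 6.87 and 7.18 in MA WT and 5.90, 5.80, 6.92 and 5.78 in MA Rage-/-, where mouse 3 stood with the WT mice. Farther out were *Pi16* (5.27 Mb, 0.66, adjusted p = 0.014), *Adgrf5* (8.76 Mb), *Enpp5* (9.48 Mb, −0.56, adjusted p = 0.0131) and *Chd1* (18.8 Mb). Differences in DNA sequence under these probes were not examined.

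**Figure D4:**
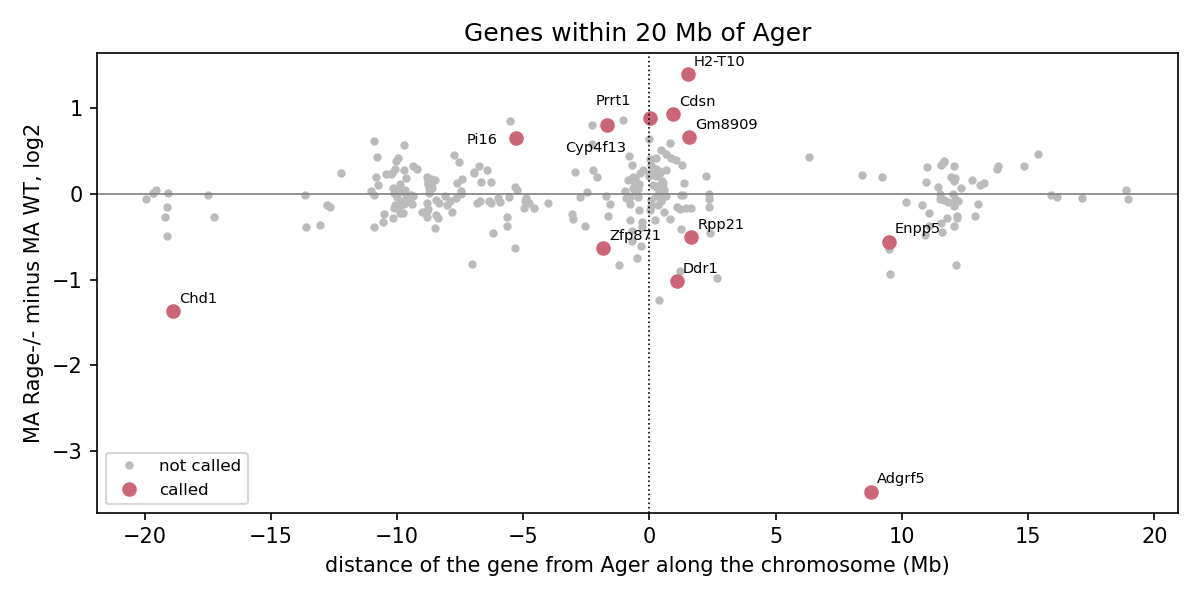
Fitted difference, MA Rage-/- minus MA WT in log2 units (y axis), of 277 tested genes by their distance from *Ager* in Mb (x axis, 0 at *Ager*), with the 12 called genes in red. *Adgrf5*, at −3.48 and 8.76 Mb, stands far below the other genes, and 8 of the called genes lie within 2 Mb of *Ager*.

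The same genes were read at the other ages from the same fit, where no MA mouse is shared with the Young (10 weeks, 5 WT and 5 Rage-/-) or Old comparison (21 months, 5 WT and 6 Rage-/-). Of the 252 probes called in MA, 4 were also called in Young and 3 in Old, 2 of them at every age, *Adgrf5* and the EGFP probe. Among the rest, *Pisd-ps3* was called in Old (−1.96, adjusted p = 2.54e-05) and *Cdsn* in Young (0.96, adjusted p = 0.0174). The sign was shared in 121 with Young and in 126 with Old. Taken in the MA direction, their median difference was 0.87 in MA, −0.01 in Young and 0.00053 in Old. Since the probes were chosen for their MA difference, the MA median is a description. *P2ry1* had differences of 0.36 in Young (adjusted p = 0.474) and −0.27 in Old (adjusted p = 0.939) beside −1.05 in MA, and the change from Young to MA passed (adjusted p = 0.0324). *Ankrd23* had −0.62 in Young (adjusted p = 0.122) and 0.20 in Old (adjusted p = 0.978) beside 0.90, and its change from Young also passed (adjusted p = 0.0324). *Ankrd1* had −0.21 in Young and −0.17 in Old, and its change did not pass in either case (adjusted p 0.064 and 0.111). *Igtp* and *Irgm2*, not called in MA, had differences of −2.90 and −2.43 in Young (both called), and their change from Young to MA did not pass (adjusted p 0.0557 and 0.0527). The change itself passed in 10 of the 252 probes for Young and in 14 for Old, beside 14 and 20 of all probes. The 252 were chosen for their MA difference, which is part of each change, so this overlap is built in and has no meaning of its own.

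**Figure D5:**
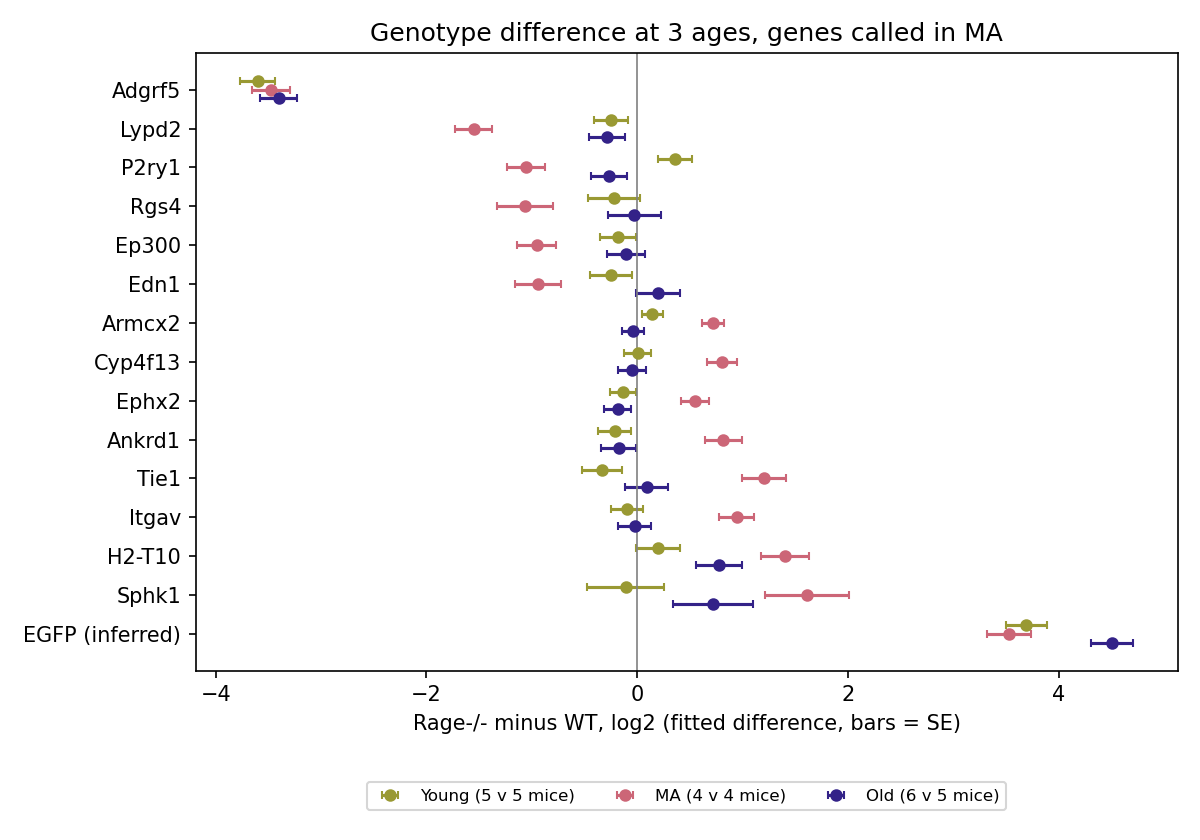
Fitted genotype difference, Rage-/- minus WT in log2 units with SE bars (x axis), of 15 probes called in MA (y axis) in Young (5 and 5 mice), MA (4 and 4) and Old hearts (6 and 5). *Adgrf5* lay below 0 and EGFP above 0 at all ages, each with 1 genotype below detection in MA, so the sizes of their differences are not compared, while *P2ry1* ran from 0.36 in Young to −1.05 in MA.

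Tissue checks went as follows in the 8 mice. The ventricular myosin light chain *Myl2* had means of 14.87 and 14.83. Atrial genes varied within both groups, with list scores of −2.70 to 0.89 in MA WT and −2.76 to 0.86 in MA Rage-/-, and *Sln* and *Myl7* were detected in 3 WT and 2 Rage-/- mice each. The part of included atrial tissue in the other results was not tested. The reference genes of the study's RT-qPCR, *Hprt* and *Ldha*, had differences of 0.16 and 0.02 (adjusted p 0.546 and 0.957). Of the other genes it measured that way, *Rps24* (0.06, adjusted p = 0.827) and *C4a* (0.09, adjusted p = 0.888) were not called, and *C4a* may not be told from its near copy *C4b* by its probe. *Fitm2*, a lipid droplet protein, had −0.04 on its brightest probe and 0.40 on the next (adjusted p 0.907 and 0.0391).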

How the data were processed

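Bead intensities of 29 arrays were exported by the authors with GenomeStudio 2011.1 and deposited as 1 mean intensity per probe, not background corrected. The detection columns deposited beside them rise with signal, so each was read as 1 minus the detection p-value, which the authors' software computes from the negative control beads. The authors' normalized log2 values were made in R 4.0.2 with lumi (variance stabilization, robust spline normalization).

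The filter asked for detection (p under 0.01) on 25% of the arrays or more and left the 13277 of the authors' matrix: 11504 had 1 gene in the platform annotation, 6 several and 1767 none. Intensities were background corrected, quantile normalized and put on the log2 scale with neqc of limma 3.58.1 (R 4.3.3, offset 16). Values of single mice are these, and quantile normalization makes levels comparable only between mice. Differences, Rage-/- minus WT, come from 1 limma fit with a mean for each of 6 groups plus 5 surrogate variables (7 were estimated, from reweighted singular vectors) and two-sided p adjusted by Benjamini-Hochberg over all probes of a comparison. Where several probes read 1 gene, the brightest stands for it unless another is named. A list's score in a mouse averages, over its genes, the distance from each gene's 29-mouse mean. A fold given as "at least" sets the bright group's mean against, per array, the higher of the lowest signal of any detected probe and the dim probe's own.

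The members and gene lists were chosen with earlier results of these data known. Genes named are those with the 12 lowest p without overlap and the 5 largest differences in each direction, called list members, the genes of the study's RT-qPCR (an item of these is not reported here), called genes within 20 Mb of *Ager* and, in lists with no call, up to 4 members of lowest p. *Ankrd23*, *Trim54*, *Nppb*, *Npr1* and the EGFP probe were added after their values were seen. So were the dimmer probes of *Myd88*, *Slc25a20* and *Acsl5*, which are not among the 56 named calls. Alternatives changed the normalization, filter, surrogate variables, BeadChip, replicate block and arrays used, and left out each MA mouse. The scripts were tested on simulated data. Promoters are RefSeq sequences of GRCm38.p6. Figures were drawn with matplotlib 3.10.9.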

Additional observations from a re-analysis of the deposited data

Results flagged for a closer look

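In 7 of 224 groups of 4 mice that were checked, 1 mouse stood apart from the other 3 by Dixon's test at the 95% level, where chance alone marks about 1 group in 20. MA WT mouse 4 had a log2 level of 6.936 for *Trim30a* (others 5.733 to 5.882). MA Rage-/- mouse 3 had 6.917 for *Ddr1* (others 5.782 to 5.895), 4.657 for *H2-DMa* (5.001 to 5.067) and 6.404 for *Eln* (6.075 to 6.084), which is 3 of the 7 values and the mouse whose omission lowered the number of calls most. MA Rage-/- mouse 1 had 7.379 for *Gm8909* (others 6.9 to 6.969), and mouse 4 had 5.501 for *Tie1* (6.413 to 6.598) and 0.005576 for the mean score of sialyltransferases and mucin-type glycosylation (0.06705 to 0.07686).

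For some named genes the genotype difference itself changed between ages by limma's test of the difference. The MA difference, by which most genes were named, enters each change. Against the Young mice the change was −1.305 for *Lypd2* (adjusted p = 0.0417), −1.601 for *Pisd-ps3*, −1.363 for *Zfp281*, −1.413 for *P2ry1*, 1.515 for *Ankrd23* and 1.539 for *Tie1*. Against the Old mice it was −1.267 for *Lypd2* (adjusted p = 0.0385), −1.341 for *Trafd1*, −1.63 for *Trim30a* and 0.759 for *Armcx2*. *Zfp281* and *Trafd1* are read here by a probe that is not their brightest.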

How the results depend on the processing

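The 252 calls became 8 without surrogate variables, 2 with the 8 MA arrays alone, 7 with BeadChip fixed (2 when the surrogate variables were also left out, an alternative chosen after seeing the data, as was the random block without them, which gave 2), and 38 without the BeadChips that held Old mice only. The causes were not tested. With BeadChip as a random block and surrogate variables 230 were called, with all 7 surrogate variables 270, with detection in 75% of arrays 197, with no filter 272, and without the 3 arrays of other groups on the MA BeadChips 275 (chosen after seeing the data). Leaving out 1 MA mouse gave 99 to 310. The replicate numbers were not taken as pairs in the reported fit. Same-numbered mice had correlations of −0.00872 to 0.43, with 2 of 4 over 0.1, and 2 of 4 WT mice were closest to their own number. So few mice cannot show whether the numbers pair them. The fit with replicate block gave 169 calls.

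For the change from Young to MA the 14 calls became 152 on the authors' values, 1 without surrogate variables, 4 with BeadChip fixed and 6 to 66 without 1 mouse, and the replicate block gave 21. For the change from Old to MA the 20 became 0 without surrogate variables, with BeadChip fixed or with the replicate block, 13 with BeadChip random and 0 to 22 without 1 mouse.

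Of 56 named calls 43 were called on the authors' values, 53 with log2 and quantile scaling, 44 with the replicate block, 16 without the Old-only BeadChips, 36 to 52 without 1 mouse and 1 with BeadChip fixed, and 50 kept their sign there, as all 56 did under each of the other scalings and mouse omissions. Signs that turned with BeadChip fixed did so at SEs of 0.33 to 2.08, and none of these genes was called there. The sign turned in *Chd1* (0.14), *S100a8* (1.07), *Egr1* (0.80), *Rgs4* (0.65), *Rc3h2* (0.91), *Edn1* (0.57), *Ier3* (0.50) and *Fosb* (0.72). With BeadChip fixed it turned too in *Dcn* (1.05), *Diaph1* (0.64), *Ndufa10* (0.017), *Ldha* (−0.0012), *C4a* (−0.77), *Col8a1* (−0.52), *Cdsn* (−0.047) and *Gcnt1* (−0.41). Near 0 it also turned in *Fitm2* (authors' values 0.0057, log2 and quantile 0.00050, without the Old-only BeadChips 0.041, without 1 mouse −0.11 to 0.0066), *Ldha* (no surrogate variables or MA arrays alone −0.036, no filter −0.074, without 1 mouse −0.080 to 0.12), *Rps24* (no filter −0.043, without 1 mouse −0.015 to 0.089) and *C4a* (no surrogate variables or MA arrays alone −0.040, no filter −0.020). On the authors' values the called list members rose from 1 to 3 in PPAR-alpha targets, from 3 to 5 lower in G protein-coupled receptors and RGS proteins, from 2 to 6 in mRNA stability and from 1 to 4 in the tricarboxylic acid cycle, and fell from 3 to 2 in TGF-beta signalling, from 1 to 0 among interferon-inducible genes and among receptors called higher, while integrins went from 1 higher to 1 lower. Of 418 list medians under the alternatives 36 moved by more than the spread between mice.

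Signal limits the dim calls: the called probes had a lower median level than all probes, and 31 were below detection in every WT mouse and 36 in every Rage-/- mouse.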
